A study of Mus musculus with 10 samples.

Results

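The genes examined here encode 7 nuclear receptors of the steroid hormone and estrogen-related families in the mouse: the progesterone receptor gene Pgr, the estrogen receptor genes Esr1 and Esr2, the glucocorticoid receptor gene Nr3c1, the mineralocorticoid receptor gene Nr3c2, and Esrra and Esrrg, which encode the estrogen-related receptors alpha and gamma. They were chosen by name as a family, and every cytosine within the gene span or 5 kb either side of it was taken where both libraries had at least 5 reads. This gave 5718 cytosines in 3777 CpGs out of 6745376 cytosines in 4489220 CpGs in the deposited table. Esrrg held 2450 of them, Nr3c2 1094, Esr1 1036, Nr3c1 384, Esr2 319, Esrra 240 and Pgr 195.

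The assay was reduced-representation bisulfite sequencing (RRBS), in which CpG methylation is read in restriction fragments, here from digestion with BfaI, MseI and MspI. Both libraries came from germ cells of male pups at postnatal day 6 of the line LT-11B6, which carries an Id4-eGfp transgene on a C57BL/6 background, so that all cells of both fractions expressed the ID4-EGFP reporter of undifferentiated spermatogonia. The fractions were the most strongly (TSPAN8-high) and the most weakly (TSPAN8-low) stained of these cells after labelling with an antibody against the surface tetraspanin TSPAN8. Each fraction was 1 library from 300 ng of DNA of 5 pooled sorts, with no replicate, and the other 8 samples of the series were not analysed here. The tests below therefore compare 2 libraries and not the 2 conditions, and the intervals cover counting error only.

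Depth was alike in both libraries, with a median of 10 reads per cytosine over the 5718 cytosines in each, as over the whole table. Promoters of germ cell genes that are methylated in somatic cells were below 20% in both libraries at 9 of 9 genes measured, from 0.826% to 12.3% in TSPAN8-high and from 0.903% to 15.6% in TSPAN8-low. The start windows of 6 imprinted genes whose methylated allele in somatic cells is the maternal one held 0.29% to 8.28% methylation. Of 14 somatic marker promoters measured, 5 were above 80% in both libraries (Gata4 of Sertoli, Star and Cyp17a1 of Leydig cells, Csf1r of macrophages and Pecam1 of endothelium). Another 5 were below 20% in both (Sox9, Wt1, Amh and Cldn11 of Sertoli cells and Myh11 of peritubular myoid cells), and 4 fell in neither class (Insl3 of Leydig cells, Acta2 and Cnn1 of peritubular myoid cells and Tek of endothelium). A promoter's methylation is no measure of its expression, and the part of other cell types in the results was not tested.

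Steroid receptors are transcription factors that bind a lipid hormone, move to or stay in the nucleus and bind short response elements in DNA, from which they recruit coactivators or corepressors. The estrogen-related receptors share the fold and much of the DNA-binding domain with the estrogen receptors but bind no known natural estrogen, and they are best known as regulators of mitochondrial and energy metabolism genes. In the testis the action of steroids on germ cells is usually described as passing through receptors of Sertoli, Leydig and peritubular cells, and promoters rich in CpGs are commonly unmethylated whether or not the gene is transcribed.

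The RefSeq promoter sequences of 4 starts are given because they show the range over the family. The first is an unmethylated start with 6 CpGs (Pgr), against a median of 7 over all promoter sequences. The pair of Esr1 starts follows, and then an unmethylated start dense in CpGs (Esrra). Each runs 5′ to 3′ from 250 bases before to 50 bases after the start in GRCm38.p6, the assembly also called mm10. Capitals mark the CpGs that the deposited table lists with at least 5 reads in both libraries. Pgr lies on the plus strand of chr9:8899583-8899882, the Esr1 starts on the plus strand of chr10:4611739-4612038 and chr10:4709908-4710207, and Esrra on the minus strand of chr19:6921759-6922058.
Pgr: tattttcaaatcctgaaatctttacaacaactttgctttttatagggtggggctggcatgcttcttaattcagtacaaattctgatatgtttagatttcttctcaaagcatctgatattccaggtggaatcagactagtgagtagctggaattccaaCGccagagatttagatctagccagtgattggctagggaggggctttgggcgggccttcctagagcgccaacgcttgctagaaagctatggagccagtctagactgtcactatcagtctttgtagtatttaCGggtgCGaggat
Esr1, start 1: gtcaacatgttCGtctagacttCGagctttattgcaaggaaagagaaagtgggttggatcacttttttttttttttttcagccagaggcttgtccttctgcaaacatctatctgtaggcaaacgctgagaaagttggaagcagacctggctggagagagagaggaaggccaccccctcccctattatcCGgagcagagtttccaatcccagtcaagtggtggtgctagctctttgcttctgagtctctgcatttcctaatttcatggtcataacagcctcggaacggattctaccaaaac
Esr1, start 2: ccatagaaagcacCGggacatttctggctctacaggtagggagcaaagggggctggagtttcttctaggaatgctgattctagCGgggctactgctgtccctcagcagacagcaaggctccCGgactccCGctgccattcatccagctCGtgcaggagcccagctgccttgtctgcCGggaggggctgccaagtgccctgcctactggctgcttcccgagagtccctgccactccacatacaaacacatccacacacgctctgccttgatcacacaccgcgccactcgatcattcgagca
Esrra: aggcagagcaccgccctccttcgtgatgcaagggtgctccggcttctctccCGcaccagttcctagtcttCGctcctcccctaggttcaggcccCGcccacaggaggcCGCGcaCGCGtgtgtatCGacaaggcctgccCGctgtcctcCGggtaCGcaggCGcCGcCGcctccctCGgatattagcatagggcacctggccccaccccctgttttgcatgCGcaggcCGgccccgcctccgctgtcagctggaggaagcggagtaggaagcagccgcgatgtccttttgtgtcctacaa

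The Pgr sequence has 6 CpGs, of which 3 were listed, and no methylated read was found at them in either library. With 177 reads in TSPAN8-high this allows a level of up to 1.69%, and with 88 in TSPAN8-low of up to 3.41%, where a limit stands for 3 reads. Start 1 of Esr1 has as many CpGs as Pgr, again with 3 listed, but these had 16 of 42 reads methylated in TSPAN8-high against 12 of 30 in TSPAN8-low. Most of these methylated reads lay at 1 CpG, at -239 near the edge of the sequence, with 50% of 30 reads and 50% of 20. The CpGs at -228 and -62 had 5 to 7 reads in each library, at 0% to 40%. Start 2 of Esr1 has 12 CpGs, and its 6 listed ones held 3.11% and 5.74%. The Esrra sequence has 25 CpGs, more than 81.6% of the 32851 promoter sequences in the table, and its 17 listed CpGs held 0.531% in TSPAN8-high against 0.251% in TSPAN8-low. Among Pgr, Esr1, Esr2, Nr3c2, Esrra and Esrrg, 10 starts had a sequence. On either strand none of the 10 held the palindromic estrogen response element GGTCANNNTGACC, the estrogen-related receptor element TCAAGGTCA or the glucocorticoid and progesterone response element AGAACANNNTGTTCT, which were found in 0.0700%, 0.423% and 0.00913% of all promoter sequences. The GC box GGGCGG, searched on both strands, was found in 5 of 10 (1 start of Pgr, 1 of Nr3c2, 1 of Esrra and 2 of Esrrg) against 35.7% of all promoter sequences. Absence of these letters from a window of 300 bases says nothing about binding elsewhere.

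Along the gene spans, 6 of the 7 genes had mostly methylated cytosines with an unmethylated start or interior stretch, and Esrra had a low mean, with most of its cytosines at its start or in flanks low in methylation. The mean level over the cytosines of Esrrg was 84.1% in TSPAN8-high against 84.5% in TSPAN8-low, and that of Esr1 was 83.3% and 84.0%. Nr3c2 had 75.7% and 76.3%, Nr3c1 74.2% and 72.9%, Esr2 69.4% and 69.5%, and Pgr 62.0% and 62.7%. Esrra, the shortest of the genes at 11.1 kb, averaged 10.1% and 9.96%, and 1.64% of the 18239 protein-coding genes with at least 20 CpGs had a lower level in TSPAN8-high. The differences, TSPAN8-high minus TSPAN8-low, ran from -0.69 percentage points in Esr1 and Pgr to 1.28 in Nr3c1, all within the middle 95% of all genes (-2.58 to 2.44, median -0.061). When reads were pooled instead of averaging cytosines, the Pgr span differed by -7.03 points, with 62.3% (95% exact interval 60.2% to 64.3%) against 69.3% (67.4% to 71.2%). Pooling weights each cytosine by its reads, which for Pgr are described below for the window at the first base of the span only.

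**Figure D1:**
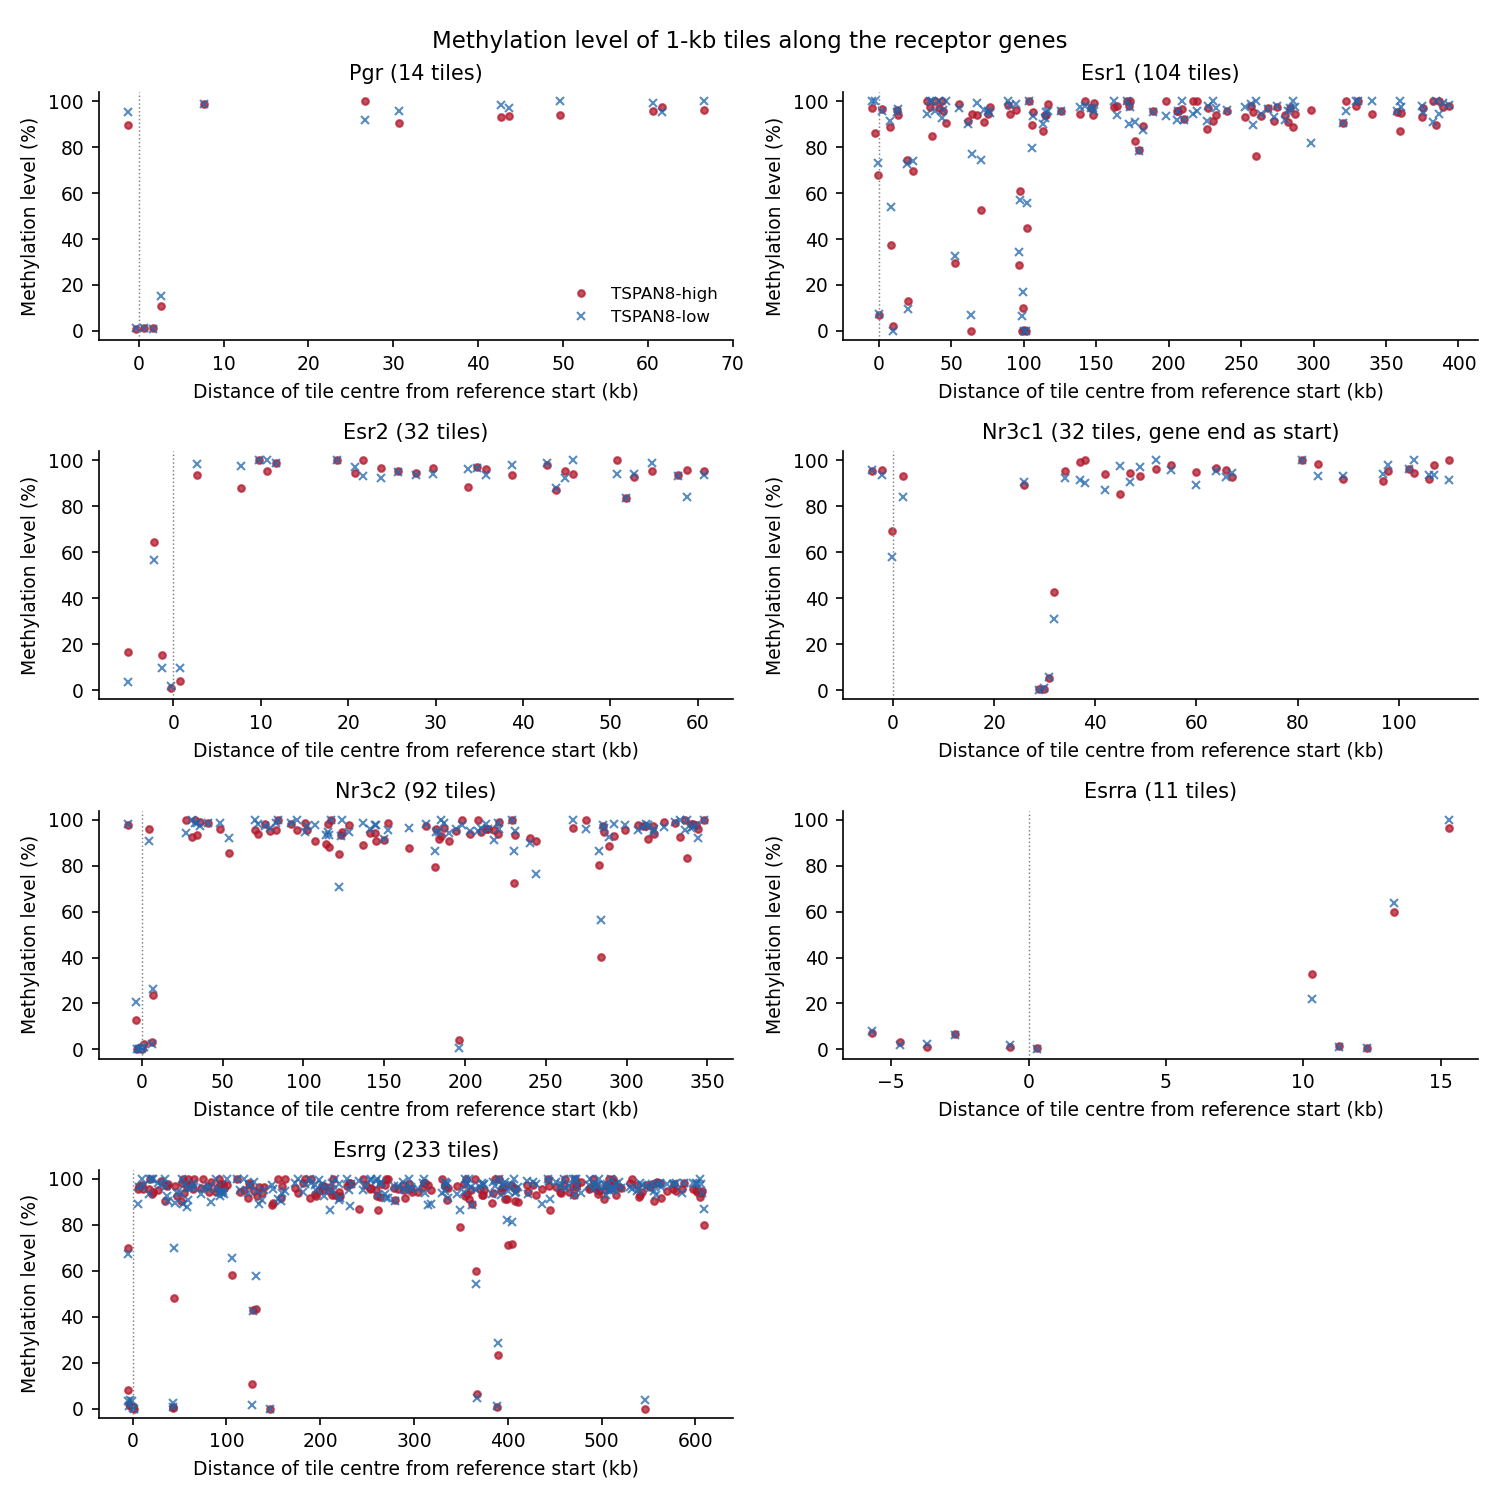
Methylation level (%) of 1-kb tiles with at least 3 CpGs along each gene, against the distance in kb of the tile's centre from the first listed start (for Nr3c1 from the end of the gene span with more listed CpGs), with circles for TSPAN8-high and crosses for TSPAN8-low. Of the 518 tiles, 435 lay above 80% and 47 below 20% in both libraries, the low ones around starts, in stretches inside Esr1, Nr3c1, Nr3c2 and Esrrg, across most of the Esrra region and in a tile -5.24 kb from the start of Esr2.

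By place, the family was split sharply. Within 1 kb of a start (for Nr3c1 of the gene end), the 476 cytosines averaged 7.14% in TSPAN8-high against 7.46% in TSPAN8-low. The 4836 cytosines of the gene bodies averaged 86.7% and 87.1%. Gene bodies were most methylated in Esrrg (93.3% and 93.7%) and Esr2 (92.8% and 93.9%) and least in Esrra (70.2% and 69.0%, only 14 cytosines). Local CpG density gave the same order in every gene. Cytosines with at most 2 listed CpGs in the surrounding 200 bp averaged 91.7% and 91.9% over the family, those with 3 to 9 averaged 69.7% and 70.3%, and those with 10 or more averaged 1.23% and 0.901%. Over the whole table these classes held 89.1%, 67.0% and 1.74% in TSPAN8-high. Esrra departed from the other genes in the sparse class, with 43.3% in TSPAN8-high against 45.6% in TSPAN8-low over 33 cytosines, against 89.0% to 93.6% and 88.5% to 93.7% in the other 6 genes. No test was made of this difference, since cytosines of a gene are not replicates.

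At the starts no difference between the libraries was called. Of 11 windows of 1 kb either side of a start (for Nr3c1 of the gene end) with at least 5 CpGs, 8 were below 20% in both libraries. No window was called by two-sided Fisher's exact test (adjusted p below 0.05 over 18647 windows, with a shift of 10 percentage points or more), against 0.611% of all windows. None of the 11 had an unadjusted Fisher's exact test p below 0.05 either, against 17% of all windows, and the lowest adjusted p was 0.528. Stratified by cytosine, start 2 of Esr1 had an unadjusted p of 0.0277 (exact conditional test, adjusted p = 0.234). In TSPAN8-high the unmethylated windows ran from 0.289% at start 3 of Esrrg to 5.45% at start 4 of Esrrg, and in TSPAN8-low from 0.484% at Esrra to 6.95% at start 4 of Esrrg. Partial methylation was found in the windows of both starts of Esr1 and of the end of the Nr3c1 span used in place of a start. Over all windows, 6.07% lay between 20% and 80%.

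**Figure D2:**
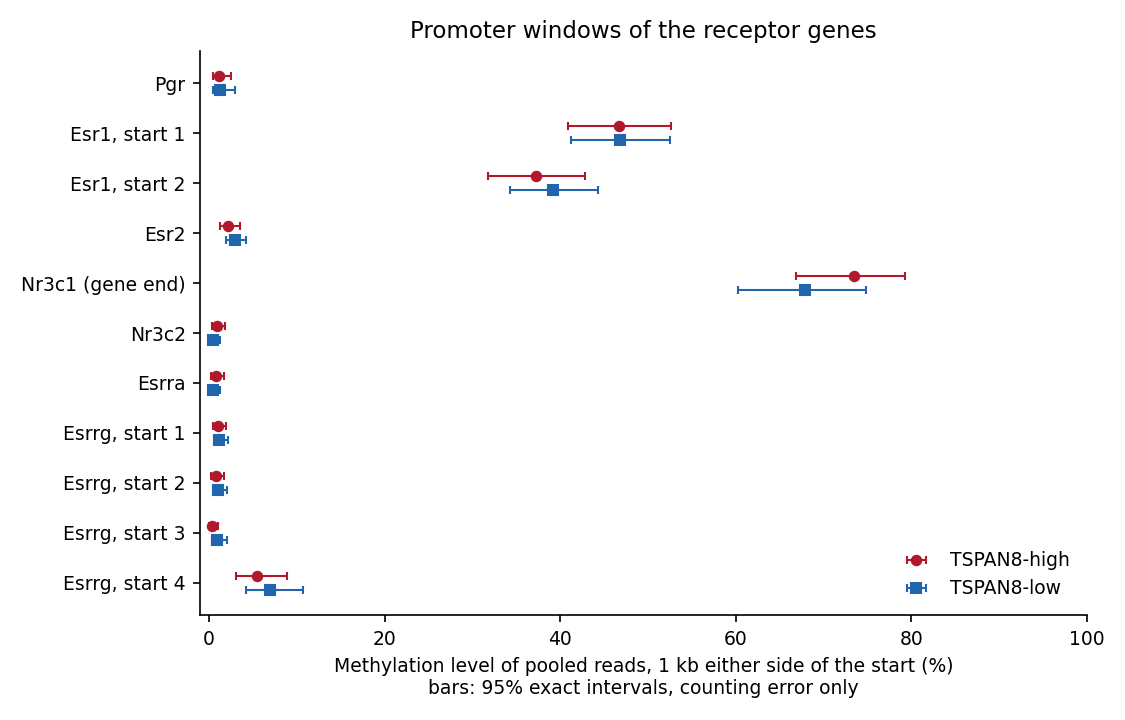
Methylation level (%) of reads pooled within 1 kb either side of each of the 11 starts, in TSPAN8-high (circles) and TSPAN8-low (squares), with 95% exact Clopper-Pearson intervals that cover counting error only. The intervals of the libraries overlap at every start, and only the Esr1 starts and the Nr3c1 gene end lie above 20%.

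Pgr, whose product mediates the response to progesterone, has its listed start at position 8899833 of chromosome 9, inside its annotated span. Within 1 kb of that start 6 of 516 reads were methylated in TSPAN8-high (1.16%, 95% exact interval 0.428% to 2.51%) and 5 of 383 in TSPAN8-low (1.31%, 0.425% to 3.02%), a difference of -0.143 points (95% Newcombe interval -1.97 to 1.40). The unmethylated stretch around it, chr9:8899740-8901821, held 48 listed CpGs at 1.10% and 1.19% over 2082 bp, in flanks of 66.2% and 71.4%. A tile just beyond it, chr9:8902001-8903000, was at 10.8% in TSPAN8-high against 15.4% in TSPAN8-low, and the next listed CpGs, 3.8 kb from the start, were at 88% to 100%.

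Pgr was the one gene of the family whose start was called under another choice of window, and the call depended on how reads were pooled. Centred on the first base of the gene span, position 8898900, the 2-kb window read 29.3% in TSPAN8-high against 47.4% in TSPAN8-low, a difference of -18.2 points (95% Newcombe interval -27.2 to -8.88, Fisher's exact test adjusted p = 0.0116, with 0.765% of all such windows called). With cytosines of at least 10 reads only, the same window was called again (Fisher's exact test adjusted p = 0.0146, with 0.37% of windows called). This window reaches from methylated sequence upstream into the unmethylated start, with nothing listed between positions -1393 and -93 relative to the start. Its 5 upstream cytosines had 86 reads in TSPAN8-high, methylated at 89.5%, and 87 reads in TSPAN8-low, methylated at 95.4%. Its 6 cytosines at the start had 177 and 88 reads, none of them methylated. Reads on the unmethylated cytosines thus made up 67.3% of the window's reads in TSPAN8-high against 50.3% in TSPAN8-low. Averaged over the 11 cytosines with equal weight, the window stood at 40.5% and 42.9%, and stratified by cytosine the difference was -2.82 points (exact conditional test p = 0.142, adjusted p = 0.512). The upstream tile alone, chr9:8898001-8899000, differed by -5.87 points (Fisher's exact test adjusted p = 0.812). In it the cytosine at 8898156 had 10 of 16 reads methylated in TSPAN8-high against 19 of 19 in TSPAN8-low, while its partner on the other strand, at 8898157, was fully methylated in both. Over all 18647 windows around starts, 68 (0.365%) were called by the test stratified by cytosine and 114 by pooled reads, of which 51 were called both ways, and none of the 11 receptor windows was called by either.

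**Figure D3:**
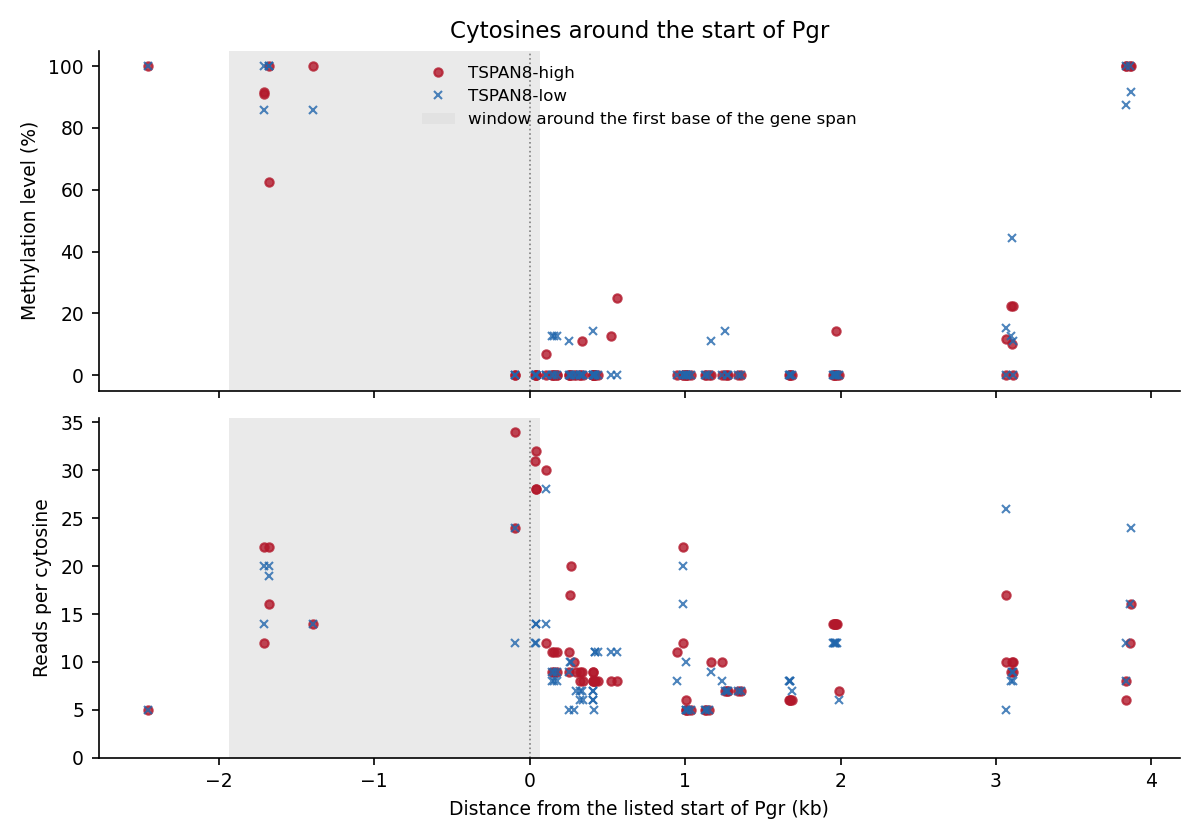
Level (%, upper panel) and reads per cytosine (lower panel) against the distance in kb from the listed Pgr start, with circles for TSPAN8-high, crosses for TSPAN8-low and the window around the first base of the gene span in grey. The unmethylated cytosines at the right edge of the grey window have up to 34 reads in TSPAN8-high and up to 24 in TSPAN8-low, while the methylated ones at its left have similar reads in both.

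Esr1, which encodes estrogen receptor alpha, was partly methylated in the 2-kb windows around both listed starts, which lie 98169 bp apart. Each start lay within the bounds of an unmethylated stretch, at 7.14% and 8.15% for start 1 and 2.92% and 6.25% for start 2. For start 1 most reads of the stretch lay 546 to 580 bases after the start. These were 100 of 112 TSPAN8-high reads and 125 of 135 TSPAN8-low reads. Nothing was listed between -62 and 546, so the stretch does not show whether start 1 itself is unmethylated. Around start 1, 135 of 289 reads were methylated in TSPAN8-high (46.7%) and 147 of 314 in TSPAN8-low (46.8%), and the difference was -0.102 points (95% Newcombe interval -8.02 to 7.82). The level fell away across this window. More than 250 bases before the start it was 76.2% and 79.2%. From 250 bases before to 500 after the start it was 38.1% of 42 reads and 40% of 30 reads. At 500 or more bases after the start it was 7.00% and 7.20%. Around start 2 the window held 37.2% and 39.2%, made up of an upstream part at 84.1% and 89.3% and a core, from 250 bases before to 500 after the start, at 2.92% and 6.25%. Beyond 500 bases after start 2 a single listed CpG had 4 of 12 reads methylated in TSPAN8-high against 10 of 16 in TSPAN8-low. The 2-kb average at both Esr1 starts thus pools parts of unlike level, the upstream part being the most methylated in each library. The difference at start 2 was -1.99 points pooled (Fisher's exact test adjusted p = 0.937) and -4.57 stratified by cytosine (exact conditional test unadjusted p = 0.0277, adjusted p = 0.234). Past this window, 1240 bp from start 2, the unmethylated stretch chr10:4711398-4713511 held 41 CpGs over 2114 bp at 0.876% and 0.647%.

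In Esr1, 13 tiles (12.5% of those measured) had an unadjusted Fisher's exact test p below 0.05, against 8.6% of all tiles. Of these, 4 were higher in TSPAN8-high (3.85% of the gene's tiles, against 4% of all tiles) and 9 were lower (8.65%, against 4.59%). None was called at 5 reads, and the lean was not tested. The pair with the largest differences among tiles with at least 50 reads in each library were both lower in TSPAN8-high. In chr10:4682001-4683000 (-27.7 kb from start 2), 32 of 61 reads were methylated in TSPAN8-high (52.5%) and 79 of 106 in TSPAN8-low (74.5%), a difference of -22.1 points (95% Newcombe interval -36.4 to -7.03, Fisher's exact test adjusted p = 0.274). Stratified by cytosine the difference was -25.6 points (exact conditional test adjusted p = 0.0906). On the minus strand 15 of 30 reads were methylated against 35 of 35, and with that strand alone the tile was called (Fisher's exact test adjusted p = 0.00185, stratified by cytosine 0.00164, with 0.207% of such tiles called), whereas the plus-strand cytosines at 4682890 and 4682910 stood at 46.7% against 45.7% and at 62.5% against 77.8%. In chr10:4620001-4621000 the levels were 37.5% over 56 reads and 54.1% over 74 reads, a difference of -16.6 points (Fisher's exact test adjusted p = 0.660), and 5 of its 6 cytosines were lower in TSPAN8-high. The tile of Esr1 with the lowest p, chr10:4994001-4995000, near the far end of the gene, had all 125 reads methylated in TSPAN8-high against 81 of 89 in TSPAN8-low (91.0%, Fisher's exact test adjusted p = 0.104). It was called with cytosines of at least 10 reads (72 of 72 against 39 of 47, Fisher's exact test adjusted p = 0.0458, with 0.648% of such tiles called). In that setting its adjusted p by the exact test stratified by cytosine was 0.159. Next in order of p were chr10:4648001-4649000, with 51 of 60 reads methylated against 53 of 53 (Fisher's exact test adjusted p = 0.207), and chr10:4655001-4656000, with 113 of 113 against 87 of 94 (0.215). After these came chr10:4710001-4711000, which holds start 2, with 0 of 115 against 9 of 135 (Fisher's exact test adjusted p = 0.233). Stratified by cytosine its unadjusted p was 0.00309 (exact conditional test). The single cytosine of Esr1 with the lowest p, at 4613084, had 4 of 16 reads methylated in TSPAN8-high against 10 of 10 in TSPAN8-low (unadjusted p = 0.000201, Fisher's exact test adjusted p = 0.748), and its partner on the other strand stood at 86.0% and 82.0%.

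Esr2, the gene of estrogen receptor beta, had an unmethylated start. Its window held 43 CpGs, with 17 of 776 reads methylated in TSPAN8-high (2.19%) and 28 of 958 in TSPAN8-low (2.92%), a difference of -0.732 points (95% Newcombe interval -2.24 to 0.836). The surrounding stretch, chr12:76176241-76178684, was at 3.50% and 3.44%, and its flanks at 86.9% and 84.4%. The pair of tiles chosen for the largest difference among those with at least 50 reads, chr12:76169001-76170000 and chr12:76143001-76144000, lay in the gene body at 87.9% against 97.6% and 88.5% against 96.5%. Their adjusted p values by Fisher's exact test were 0.502 and 0.459.

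Nr3c1 encodes the glucocorticoid receptor, and no start or strand was listed for it. Its window was set at the end of the gene span, position 39519421 of chromosome 18, because that end has more listed CpGs than the other. Whether this end is a promoter of the gene is therefore not known. That window was methylated, with 152 of 207 reads in TSPAN8-high (73.4%) and 114 of 168 in TSPAN8-low (67.9%), a difference of 5.57 points (95% Newcombe interval -3.62 to 14.8, Fisher's exact test adjusted p = 0.642). The gene's only unmethylated stretch lay 28102 bp inside the span, at chr18:39488499-39491319, where 46 CpGs over 2821 bp held 0.758% and 0.610% over 1055 and 983 reads. Whether this stretch holds a start of the gene could not be told either. Of the tiles with at least 50 reads, chr18:39519001-39520000 stood at 69.3% and 58.1% and chr18:39482001-39483000 at 99.1% and 91.7%, with adjusted p values by Fisher's exact test of 0.585 and 0.280. In the second of these a single plus-strand cytosine, at 39482156, had 18 of 18 reads methylated against 14 of 22, and the other strand of the same CpG was at 100% in both libraries.

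Nr3c2, the gene of the mineralocorticoid receptor, which binds aldosterone and also cortisol-type steroids, had the widest unmethylated start of the steroid receptor genes proper. The stretch chr8:76898803-76903396 held 128 CpGs over 4594 bp, with 0.585% methylation over 2392 reads in TSPAN8-high against 0.381% over 2100 reads in TSPAN8-low, and it also covers the start of the neighbouring gene Gm10649. The start window itself was at 0.883% (7 of 793 reads) and 0.492% (4 of 813). Another stretch of 18 CpGs lay 5993 bp from the start, at 6.22% and 8.29%. A further one, chr8:77098272-77098518, held 7 CpGs 195942 bp from the start at 3.96% and 0.588%, in flanks of 98.2% and 97.1%.

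Nr3c2 also held the single cytosine with the lowest p of the family. At 77024959 of chromosome 8, 122.6 kb from the start, 18 of 18 plus-strand reads were methylated in TSPAN8-high against 4 of 14 in TSPAN8-low (unadjusted p = 1.55e-05, Fisher's exact test adjusted p = 0.197). The minus strand of the same CpG stood at 71.4% over 28 reads and 58.3% over 24. The tile around it, chr8:77024001-77025000, was at 84.9% and 70.5%, a difference of 14.4 points (95% Newcombe interval 4.49 to 24.4, Fisher's exact test adjusted p = 0.246). A tile in the opposite direction, chr8:77186001-77187000, was at 40.3% over 72 reads and 56.3% over 87 reads (Fisher's exact test adjusted p = 0.603), and its cytosines ran from 0% to 100% in both libraries.

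Esrra, the gene of estrogen-related receptor alpha, was unmethylated at its start, with 6 of 772 reads methylated in TSPAN8-high (0.777%) and 4 of 826 in TSPAN8-low (0.484%). Its low level over the whole span goes with its surroundings, since 166 of its 240 cytosines lay in the flanks, where the mean was 8.34% and 8.46%. Besides its own start it had a stretch over its far end that covers the start of Prdx5, chr19:6909452-6911401 at 3.04% and 2.11%, and a stretch beyond its start that covers the start of Catsperz, chr19:6924467-6927049 at 2.21% and 1.66%. The tile with the larger difference, chr19:6911001-6912000, stood at 32.9% over 70 reads and 22.1% over 68 reads (adjusted p = 0.846 by Fisher's exact test). All its listed cytosines, from 6911030 to 6911401, lie within the bounds of the stretch over the start of Prdx5.

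Esrrg, which encodes estrogen-related receptor gamma, is the longest gene of the family at 606 kb and has 4 listed starts. Their windows were all unmethylated. Start 1 was at 1.01% and 1.19%, start 2 at 0.769% and 1.04%, start 3 at 0.289% and 0.932%, and start 4, which lies 388821 bp from the first, at 5.45% and 6.95%. The windows of starts 2 and 3, which are 483 bases apart, share most of their cytosines. The largest unmethylated stretch of the family, which also overlaps the genes Gm36388 and Gm46176, ran over start 1, chr1:187604207-187610426, with 112 CpGs over 6220 bp at 1.76% and 1.53%. The smallest, chr1:188155115-188155265, lay in the gene body 157288 bp from the nearest start of Esrrg, with 0 of 154 reads methylated in TSPAN8-high, which allows a level of up to 1.95%, and 3.68% of 136 reads in TSPAN8-low.

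In Esrrg the pooled and the stratified readings of a tile again parted. In chr1:187653001-187654000, 1.26 kb past start 3, pooled reads gave 48.1% in TSPAN8-high against 69.8% in TSPAN8-low, a difference of -21.7 points (95% Newcombe interval -35.0 to -7.42, Fisher's exact test adjusted p = 0.222). The tile holds 3 unmethylated and 4 methylated cytosines, as at Pgr, and the stratified difference was -5.01 points (exact conditional test p = 0.269). The tile chr1:187740001-187741000 stood at 43.5% and 57.7% (Fisher's exact test adjusted p = 0.749). At the cytosine with the lowest p of the gene, 187850433, 10 of 16 reads were methylated against 29 of 29, with a Fisher's exact test adjusted p of 1.00.

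Unmethylated stretches were found both at and away from starts. With at least 5 CpGs below 25% in the mean of the libraries and no gap over 1 kb, 21 stretches were found, of which 11 lay over 2 kb from a start of their own gene (for Nr3c1 from the gene end). Of these 11, 2 in the region of Esrra covered the start of a neighbouring gene, that of Nr3c1 could not be placed against a listed start, and 8 lay over 2 kb from any listed start. Esr1 and Esrrg had 6 each, Nr3c2 and Esrra 3 each, and Pgr, Esr2 and Nr3c1 1 each. The difference between the libraries ran from -7.02 points in a stretch of 5 CpGs in Esr1, chr10:4675187-4675635, at 0 of 101 reads (which allows a level of up to 2.97%) and 7.02% of 114 reads, to 3.51 points in another Esr1 stretch, chr10:4632285-4632654, at 13.0% and 9.47%. The stretches were chosen by their level, so the level itself is no result.

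Across 1-kb tiles with at least 3 CpGs, none of the 518 tiles was called by Fisher's exact test with Benjamini-Hochberg adjustment over 585220 tiles, against 0.268% of all tiles. The lowest adjusted p was 0.102, in a tile of Esrrg. An unadjusted p below 0.05 was found in 42 tiles (8.11%), against 8.6% of all tiles. Of the 42, 15 were higher in TSPAN8-high (2.90% of the 518 tiles, against 4% of all tiles) and 27 were lower (5.21%, against 4.59%). A difference of at least 10 points was found in 28 tiles (5.41%), against 8.05%. The median difference over the family's tiles was -0.41 points and over all tiles 0, and by gene it ran from -3.36 in Pgr (14 tiles) to 0.86 in Nr3c1 (32 tiles). At single cytosines none of 5718 was called, against 0.00111% of all cytosines, and 71 had an unadjusted p below 0.05 (1.24%), against 1.46%. The shares at an unadjusted p below 0.05 were near those of the whole table, and the share of tiles with 10 points or more was lower, a difference that was not tested. At the median of 10 reads even a complete difference gives a Fisher's exact test p of 1.08e-05, above the largest p of any called cytosine, 1.28e-06. With equal reads a complete difference reaches that value from 12 reads on, and 2219 of the 5718 cytosines (38.8%) were deep enough for it, so a count of 0 says little at single cytosines.

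**Figure D4:**
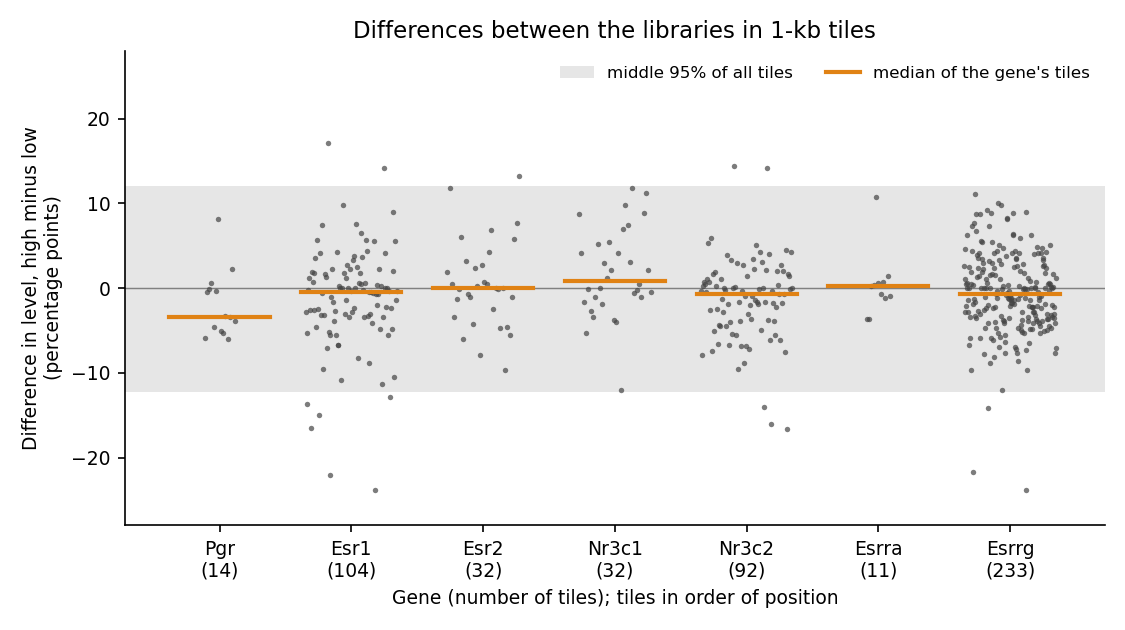
Difference in methylation level (percentage points, TSPAN8-high minus TSPAN8-low) of each 1-kb tile, by gene and in order of position, with the median of each gene's tiles in orange and the middle 95% of all 585220 tiles (-12.3 to 12.0) in grey. Most tiles of every gene lie inside the grey band, and the tiles outside it belong to Esr1, Esr2, Nr3c2 and Esrrg.

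The wider steroid receptor pathway was read at 1 start window a gene. Of 40 genes listed as other receptors, coregulators, chaperones of the receptors, steroid enzymes and targets, 36 were measured and none was called by Fisher's exact test, against 0.583% of 15964 genes, while 6 (16.7%) had an unadjusted p below 0.05, against 17.2%. By list these were 5 of 11 targets (45.5%), 1 of 5 other receptors, 1 of 6 chaperones and none of 10 coregulators or 5 steroid enzymes. A gene among them stands in 2 lists, as target and chaperone, and the spread over lists was not tested. An adjusted p below 0.05 without the 10 points was found at 2 of the 36, both among the targets, against 4.1% of all genes. Greb1, an estrogen-induced gene, stood at 1.11% against 4.93% (-3.82 points, 95% Newcombe interval -6.24 to -1.83, Fisher's exact test adjusted p = 0.0135). Cited1, the gene of a transcriptional coactivator, stood at 3.05% of 262 reads against 0 of 305, which allows up to 0.984% (Fisher's exact test adjusted p = 0.0495). The values of Greb1 and Cited1 are from pooled reads and were not stratified by cytosine. In both libraries 34 of the 36 were below 20%, against 85.5% of all genes measured, and 2 were above 80%: Ppargc1a, a coactivator of estrogen-related receptors, at 98.6% and 98.4%, and Cyp19a1, the aromatase gene, at 95.8% and 92.7%. Their median difference was -0.0638 points, against -0.0117 over all genes, and the differences ran from -14.3 points at Nr0b1, with 28 reads in each library (Fisher's exact test adjusted p = 0.439), to 3.42 at Pdk4. Among receptors, Pgrmc2 stood at 0.564% and 0.920%, and Esrrb, another estrogen-related receptor, at 1.62% and 0.198% (Fisher's exact test adjusted p = 0.222). The coregulator gene Nrip1 stood at 0.943% and 0.425%. Of the chaperones, Stip1 stood at 1.19% and 0.782% and Fkbp4 at 0.877% and 0.432%. Of the steroid enzymes, Hsd11b2, which inactivates glucocorticoids, stood at 1.15% and 1.49%, and Srd5a1, a steroid 5-alpha-reductase, at 0.415% and 0.588%. Of the targets, Sgk1, a kinase gene induced by corticoids, stood at 7.29% and 7.81%, and Wnt4 at 0.842% and 1.25%.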

How the data were processed

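RRBS was read in 2 libraries, 1 of each TSPAN8 fraction, from 1 table deposited by the authors with a line per cytosine of a CpG and strand. Methylation levels were deposited as a fraction, rounded to 2 decimals, and the deposited coverage columns are read counts, with no value under 5. The deposited p-value of the authors matched Fisher's exact test on the counts at 93.6% of cytosines (relative tolerance 0.001). The deposited difference column was not used. The submitters' processing notes name Bowtie, SICER, mm9 and mm10 without an assay, and the RRBS aligner and caller are not given in the sources used here. All 231004 listed cytosines inside RefSeq promoter sequences (GRCm38.p6, that is mm10) lay on a CpG, so coordinates are those of mm10.

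The number of methylated reads was taken as the level multiplied by the coverage and rounded. Reads were pooled over cytosines and strands in windows of 1 kb either side of a start (at least 5 CpGs) and in tiles of 1 kb (at least 3), and compared with a two-sided Fisher's exact test, with Benjamini-Hochberg adjustment over every window, tile or cytosine of the table (Python 3.11.15, numpy 2.4.6, scipy 1.17.1, pandas 2.3.3, numba 0.67.0). Calls need an adjusted p below 0.05 and 10 percentage points, or 20 for single cytosines. Starts came from the promoter table, and from the end of the gene span with more listed CpGs for Nr3c1 and other genes without an entry. A read is counted at each CpG it covers, read numbers were even at 59.4% and 59.5% of cytosines, and reads carry no molecular identifiers, so these p values are too small. As an added check, an exact conditional test stratified by cytosine compared reads within each cytosine only. The code was tested on simulated data. Members and lists were chosen with earlier results of these data known. Named were all 7 genes, in each the 2 tiles with the largest difference among those with at least 50 reads in each library and the cytosine with the lowest p, and the 2 genes of each pathway list with the most reads, of which 1 is not reported here. Other tiles, Ppargc1a, Cyp19a1, Greb1, Cited1, Nr0b1 and Pdk4 were named after their values were seen.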

Additional observations from a re-analysis of the deposited data

How the results depend on the processing

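No paired analysis was possible because each fraction has 1 library and the labels give these libraries no replicate numbers. Alternatives were other read minima, single strands, 1 CpG per 100 bp, other window and tile sizes, other minimum differences and the leaving out of cytosines above the 99th percentile of reads. Chosen after seeing the data were an exact test stratified by cytosine, pooling both strands of a CpG, and setting each start at the end of the gene span with more listed CpGs. The count of receptor windows called became 1 (Pgr) with starts at gene ends, both at 5 reads (126 of 16475 windows called in all) and at 10 reads (47 of 12695), and 0 when that was stratified by cytosine. The count of receptor tiles called became 1 of 165 at 10 or more reads (1216 of 187549 tiles called in all). On the minus strand alone it became 1 of 380 (858 of 413499), each time a tile of Esr1. In the other settings these counts and the count of cytosines called stayed at 0, while the calls over the whole table ran from 11 to 745 windows (114 as reported), from 149 to 2098 tiles (1570) and from 27 to 177 cytosines (75). Stratified by cytosine, 68 windows and 1852 tiles were called. Of 102 recomputed promoter differences, 94 moved by less than counting error and 28 changed sign, most of them within a point of 0. The mean difference of the Pgr span was -7.03 points with pooled reads and 3.00 at 20 or more reads, where few cytosines remain. The cause of these shifts was not tested, and the reads per cytosine given for Pgr cover only the window around the first base of its span. With a median of 10 reads per cytosine, even a complete difference between libraries could not be called at a single cytosine of that depth.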
